A study of Homo sapiens with 4 samples.

Results

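The enzymes described here make or clear bile acids and steroids, or clear drugs, foreign compounds and lipid oxidation products, among other roles. They belong to the cytochrome P450, UDP-glucuronosyltransferase (UGT), glutathione S-transferase (GST) and sulfotransferase (SULT) families. Members were the probe sets that the annotation pairs with 1 gene symbol of CYP and a number, UGT1A, UGT2A, UGT2B, the GST classes A, M, O, P, T, K and Z, MGST or SULT. CYP1A1, CYP1B1, CYP26A1, CYP26B1 and CYP51A1 were set aside by the rule, and probe sets of pseudogenes and non-coding RNAs were left out, GSTT2 among them, which RefSeq lists as a pseudogene. This gave 142 of 54675 probe sets, covering 77 of 19775 genes, namely 44 P450, 7 UGT, 18 GST and 8 SULT genes. SW480, an established colorectal adenocarcinoma line, had been transduced in culture to overexpress the homeobox transcription factor HOXA5 (2 arrays) or to knock it down (2 arrays). All 4 arrays thus came from transduced SW480 cells, and every difference is overexpressing minus knock-down, with no untransduced or vector control to say which manipulation it belongs to. The vectors, their promoters and whether the cells were clones or pools are not stated in the sources used. HOXA5 itself had no probe set named here, so the labels were not checked on it. The labels do not say whether replicates were separate cultures, so p-values measure only the spread between these arrays, which may be technical.

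P450s are haem enzymes that add oxygen to their substrates, taking electrons from NADPH through a reductase. UGTs, GSTs and SULTs then attach glucuronic acid, glutathione or sulfate, and efflux transporters of the ABC family carry the products out of the cell. In the intestine these enzymes are a first barrier to what is eaten, and most of them are under nuclear receptors, the aryl hydrocarbon receptor or the stress factor NRF2.

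Values were log2 expression after RMA, a method that makes the arrays alike and gives no detection call. Array medians lay between 5.77 and 5.81 and lower quartiles between 4.24 and 4.29, and arrays correlated at no less than 0.997 within groups and at 0.991 to 0.993 between them. The epithelial keratins KRT8 (13.02 and 12.91, knock-down and overexpressing means) and KRT18 (13.86 and 13.82) were high in both groups, and KRT20 was low in both (2.97 and 2.97). Of 12 epithelial and colonic markers 3 passed the test between groups, namely EPCAM (3.73 and 8.78), KRT19 (4.70 and 9.08) and CDX2 (5.99 and 6.50). The mean over that list was 6.84 and 6.75 on the knock-down arrays against 7.67 and 7.67 on the others. None of 8 fibroblast, 7 leukocyte or 5 endothelial markers passed in limma (PDGFRB and CDH5 had an unadjusted p under 0.05), with list means of 5.82 to 5.94, 5.19 to 5.35 and 5.71 to 5.81 over the 4 arrays. Of 8 hepatocyte markers SERPINA1 passed (4.63 and 7.52), the list mean was 5.33 and 5.35 against 5.72 and 5.64, and ALB was below the lower quartile of every array. In such bulk RNA, fewer cells of a type and less RNA per cell cannot be told apart. The part of these markers in the results was not tested.

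The question was which of these enzymes differ between HOXA5 overexpressing and knock-down cells. GST genes held 4 of the 5 differences that passed, SULT2B1 was the fifth, and no P450 or UGT gene passed. GSTA4, GSTO2, GSTM2 and SULT2B1 fell in the overexpressing arrays and MGST3 rose. Of 77 member genes, each represented by its brightest probe set, 1 rose and 4 fell at an adjusted p under 0.05 (limma, Benjamini-Hochberg over all genes). That is 6.49% of members, where 4.77% of all 19775 genes passed (2.74% higher and 2.03% lower), so the share as a whole was near the background. The median difference of the members was -0.01 and that of all genes -0.02. By family, 4 of 18 GST genes passed (1 higher, 3 lower), 1 of 8 SULT genes (lower), 0 of 7 UGT genes and 0 of 44 P450 genes. The families also differed in level. Both group means lay above every array's median for 16 of 18 GST and 3 of 8 SULT genes. They did so for 0 of 7 UGT and 12 of 44 P450 genes, and for 12676 of all 19775 genes. In a fit of genes above the median level alone, 13.7% of all such genes passed. The part of level in the family counts was not tested. Differences of less than 0.25 in either direction were measured for 42 of the 44 P450 genes and for 13 of the 18 GST genes, and for 16749 of all 19775 genes.

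**Figure D1:**
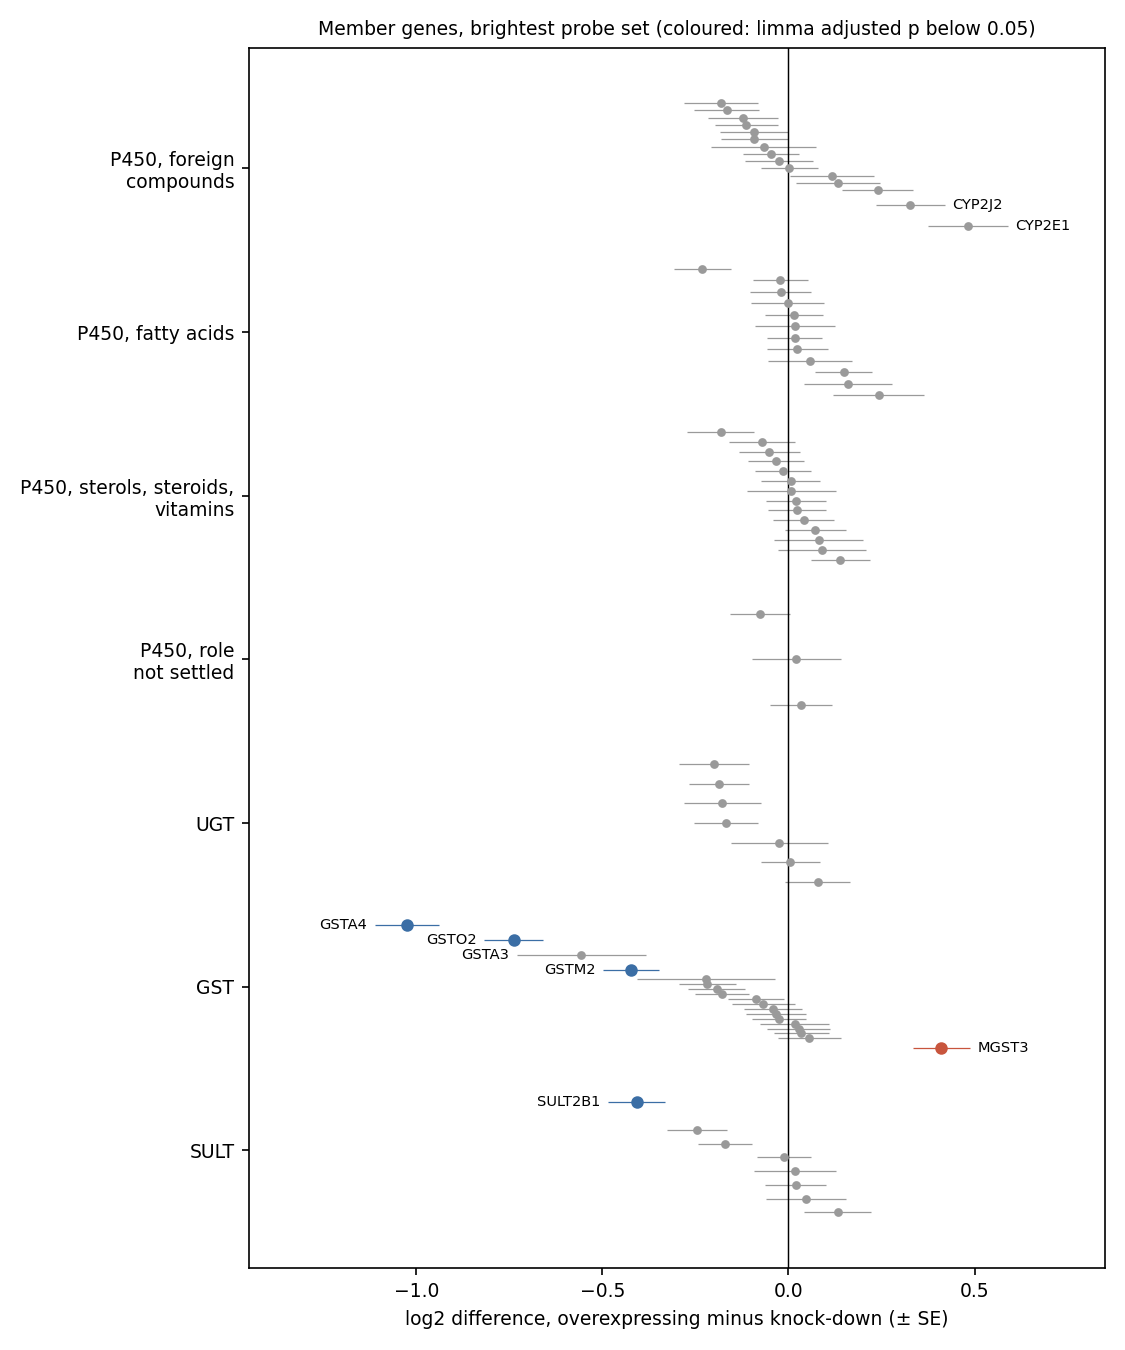
Log2 difference, overexpressing minus knock-down, with its SE, for the brightest probe set of each of the 77 member genes, grouped by family and, for P450s, by role (2 arrays per group). Coloured points passed an adjusted p of 0.05 in limma, blue lower and red higher: GSTA4 (-1.03), GSTO2 (-0.74), GSTM2 (-0.42), SULT2B1 (-0.41) and MGST3 (0.41), while all P450 and UGT points are grey.

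Cytosolic and microsomal GSTs couple glutathione to reactive molecules. GSTA4, which clears the lipid peroxidation product hydroxynonenal, was at 9.13 and 9.28 in the knock-down arrays and at 8.15 and 8.21 in the overexpressing arrays. Both overexpressing arrays lay below both knock-down arrays. GSTA4 fell 2.04-fold, a log2 difference of -1.03 ± 0.09 (SE, n = 2 per group, limma adjusted p = 0.0019). Its weaker probe set was lower in both overexpressing arrays as well, at 6.48 and 6.34 against 6.14 and 5.73, but did not pass in the fit by probe set (-0.48 ± 0.15, adjusted p = 0.19). GSTA3, its neighbour on chromosome 6 and a steroid isomerase, was at 4.73 and 5.15 in knock-down and 4.56 and 4.20 in overexpressing arrays (-0.56 ± 0.17, adjusted p = 0.15), and GSTA1 overlapped between the groups (-0.22 ± 0.19).

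GSTO2, an omega class enzyme that reduces dehydroascorbate, was at 8.92 and 9.02 in the knock-down arrays and at 8.20 and 8.26 in the overexpressing arrays. It fell 1.67-fold (-0.74 ± 0.08, SE, n = 2 per group, limma adjusted p = 0.0052). Its other probe set gave 6.99 and 6.94 against 6.32 and 6.45, a fall of its own in the fit by probe set (-0.58 ± 0.09, adjusted p = 0.029). GSTO2 was thus the sole member gene whose probe sets all passed in that fit. GSTO1, the omega class gene next to it on chromosome 10, was at 12.44 and 12.44 in knock-down and at 12.43 and 12.40 in overexpressing arrays, a difference of -0.03 ± 0.07 (adjusted p = 0.92).

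The sequences just upstream of the transcription starts of GSTA4 and GSTO2, the members with the largest falls, and of MGST3, the member that rose, are shown so that the upstream DNA of genes that moved in opposite directions can be compared. Each is the 250 bases before the start in RefSeq (GRCh38.p14), read 5′ to 3′ on the gene's strand, and 58 of the 77 member genes had such a window. Capitals mark matches on either strand to GCGTG, the core of sites of the aryl hydrocarbon receptor, to TGACNNNGC, the core of the antioxidant response element bound by NRF2, and to TAAT, the core that many homeodomains bind. Of 35093 RefSeq windows of this length 32.2% hold GCGTG, 10.9% hold TGACNNNGC and 47.5% hold TAAT, and no matches overlapped in the windows shown. They are descriptions of letters and not evidence of binding.
GSTA4, chr6:52995285-52995534, minus strand: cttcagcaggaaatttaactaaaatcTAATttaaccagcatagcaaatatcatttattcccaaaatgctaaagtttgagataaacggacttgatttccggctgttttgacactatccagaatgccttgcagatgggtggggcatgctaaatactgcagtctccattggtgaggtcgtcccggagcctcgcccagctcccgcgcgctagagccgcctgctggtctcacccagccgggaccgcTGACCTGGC
GSTO2, chr10:104268934-104269183, plus strand: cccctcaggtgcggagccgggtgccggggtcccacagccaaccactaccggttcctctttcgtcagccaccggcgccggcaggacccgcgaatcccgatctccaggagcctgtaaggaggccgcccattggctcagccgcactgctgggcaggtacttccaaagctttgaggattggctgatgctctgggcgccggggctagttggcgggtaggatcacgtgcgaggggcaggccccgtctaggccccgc
MGST3, chr1:165630984-165631233, plus strand: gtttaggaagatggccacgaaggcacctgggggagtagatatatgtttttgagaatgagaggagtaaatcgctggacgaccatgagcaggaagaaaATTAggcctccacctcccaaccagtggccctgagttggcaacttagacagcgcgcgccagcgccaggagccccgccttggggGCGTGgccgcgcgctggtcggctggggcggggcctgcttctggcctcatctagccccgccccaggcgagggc
The GSTA4 window holds TGACNNNGC in the last bases before the start site, and TAAT once farther upstream. The MGST3 window holds GCGTG once and TAAT once, the latter on the opposite strand and so printed as its reverse complement. None of the 3 motifs matched in the GSTO2 window shown, and a second RefSeq start of GSTO2 has 1 GCGTG in its window. The window of GSTM2 held no match, and that of SULT2B1 held GCGTG 2 times.

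Mu class GSTs act on epoxides and quinones, and their genes lie side by side on chromosome 1, GSTM2 between GSTM4 and GSTM1. GSTM2 was at 7.78 and 7.81 in the knock-down arrays and at 7.33 and 7.41 in the overexpressing arrays. It fell 1.34-fold (-0.42 ± 0.08, SE, n = 2 per group, limma adjusted p = 0.034). GSTM1 did not pass, though both of its probe sets were lower in both overexpressing arrays (-0.22 ± 0.08 on the brighter, adjusted p = 0.20, and -0.36 ± 0.08 on the other, adjusted p = 0.094 by probe set). GSTM3 was at 12.57 and 12.61 against 12.41 and 12.40 (-0.18 ± 0.07, adjusted p = 0.26). GSTM5 (-0.03 ± 0.08) and the brightest probe set of GSTM4 (0.02 ± 0.09) overlapped between the groups. The other probe set of GSTM4 was at 6.77 and 6.92 against 6.44 and 6.76. On it the groups were just apart without passing (-0.25 ± 0.13, adjusted p = 0.42 by probe set). The probe sets of GSTM2, GSTM1, GSTM4 and GSTM5 and the brightest of GSTM3 carry a suffix of probes shared between similar transcripts. Their signals thus cannot be fully assigned to 1 mu class gene.

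Microsomal GSTs sit in membranes and also reduce lipid peroxides. MGST3 was at 12.13 and 12.21 in the knock-down arrays and at 12.60 and 12.56 in the overexpressing arrays. It rose 1.33-fold (0.41 ± 0.08, SE, n = 2 per group, limma adjusted p = 0.039), in the direction opposite to the other GSTs that passed. Its dimmer probe sets differed by -0.06 ± 0.08 and 0.02 ± 0.10, and the mean of the 3 did not pass (0.12, adjusted p = 0.43). MGST1 differed by -0.30 to -0.19 over its 5 probe sets and passed on none, with overlap between the groups on the dimmest. The brightest was at 12.67 and 12.65 against 12.51 and 12.43 (-0.19 ± 0.08, adjusted p = 0.25). MGST2 (0.03 ± 0.07) did not pass, nor did the pi, kappa, zeta and theta class genes. GSTP1, the GST best known from tumours, was at 11.50 ± 0.11 and 11.43 ± 0.03 (SD; difference -0.07 ± 0.09, SE), GSTK1 differed by -0.09 ± 0.08, GSTZ1 by 0.06 ± 0.09, GSTT1 by -0.04 ± 0.08 and GSTT4 by 0.03 ± 0.08. Of the 18 GST genes 13 lay below 0 (median -0.08), against 11160 of all 19775 genes (median -0.02).

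GSTA4 stayed past the threshold without either knock-down array and missed it without overexpressing replicate 1 (adjusted p = 0.063) or 2 (0.056). GSTO2, GSTM2, MGST3 and SULT2B1 missed it whichever array was left out (adjusted p from 0.067 to 0.27), with the direction kept.

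**Figure D2:**
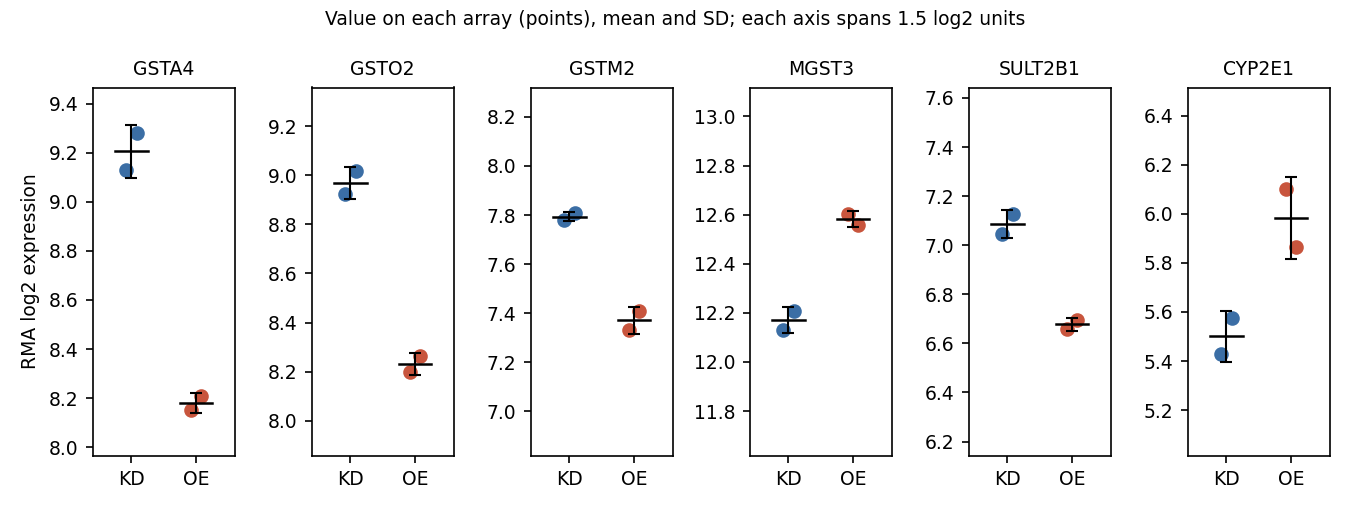
RMA log2 expression on each knock-down (KD) and overexpressing (OE) array for the 5 member genes that passed and for CYP2E1, the P450 with the largest difference, with group means and SD (n = 2 per group). In each panel the groups do not overlap, and the distance between the means ranges from 1.03 for GSTA4 to 0.41 for MGST3 and SULT2B1.

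Sulfotransferases move sulfate from PAPS to steroids, phenols and neurotransmitters. SULT2B1, which sulfates cholesterol and related sterols, was at 7.04 and 7.13 in the knock-down arrays and at 6.66 and 6.70 in the overexpressing arrays. It fell 1.33-fold (-0.41 ± 0.08, SE, n = 2 per group, limma adjusted p = 0.040). SULT4A1, a brain form without a settled substrate, was at 7.82 and 7.88 against 7.55 and 7.66 (-0.25 ± 0.08, adjusted p = 0.17). SULT1A1, the main phenol form, was at 10.34 and 10.35 against 10.18 and 10.17 (-0.17 ± 0.07, adjusted p = 0.28). For both, the groups were apart on the brightest probe set but the difference did not pass. LMTK3, a kinase gene next to SULT2B1 on chromosome 19, also fell (-0.56, adjusted p = 0.038), whereas FAM83E, its neighbour on the other side, differed by -0.03 (adjusted p = 0.93). The remaining SULT genes ranged from -0.01 (SULT1E1, the oestrogen form) to 0.13 (SULT2A1, the form for hydroxysteroids and bile acids).

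UGTs attach glucuronic acid, and UGT1A1 is the enzyme that conjugates bilirubin. None of 7 UGT genes passed in limma by its brightest probe set (0 at an unadjusted p under 0.05, where 18.6% of all genes had one). UGT1A1 was at 4.58 and 4.46 in knock-down and at 4.30 and 4.40 in overexpressing arrays (-0.17 ± 0.09, adjusted p = 0.37). UGT1A6, a form for planar phenols, differed by -0.20 ± 0.09 (adjusted p = 0.33). UGT2B15, a form for androgens, differed by -0.19 ± 0.08 on its brightest probe set but by 0.22 ± 0.09 on another. UGT2B28 was at 5.31 ± 0.09 and 5.39 ± 0.08 (SD). No UGT gene had both group means above every array's median, where 12676 of all 19775 genes did. These values cover single genes only: the first exons of the UGT1A forms differ but their other exons are shared, and 7 probe sets carry the symbols of several UGT1A genes. In a fit over all 54613 probe sets but controls, of which 1.97% passed (1.36% higher and 0.613% lower), 2 of these 7 were higher in the overexpressing arrays (0.86 ± 0.08 and 0.79 ± 0.08, limma adjusted p = 0.0073 and 0.0095).

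P450s of foreign compounds, the drug-metabolising families, did not pass in any of 15 genes. CYP2E1, which oxidises ethanol and small solvents, came closest, at 5.43 and 5.57 in knock-down cells against 6.10 and 5.87 in overexpressing cells. The groups were apart, but the difference did not pass (0.48 ± 0.11, SE, limma adjusted p = 0.065), except with an intensity trend and robust moderation used together (adjusted p = 0.032). Its 3 other probe sets gave 0.17, 0.12 and -0.22. CYP2J2, which makes epoxides of arachidonic acid, was at 5.53 and 5.33 against 5.76 and 5.76 (0.33 ± 0.09, adjusted p = 0.12). CYP3A4, the main drug-metabolising P450 of liver and gut, was at 7.46 and 7.64 against 7.45 and 7.29 (-0.18 ± 0.10, adjusted p = 0.41). That is its brightest probe set, which carries the suffix of shared probes. Its dimmer probe sets, with knock-down means of 4.58 to 6.47, differed by -0.29 to 0.07 without passing. CYP2D6 was at 7.77 and 7.65 against 7.60 and 7.49 (-0.17 ± 0.09, adjusted p = 0.39), and CYP2A6, which clears nicotine, differed by 0.002 ± 0.08. CYP1A2, a target of the aryl hydrocarbon receptor, differed by -0.12 ± 0.09 (adjusted p = 0.59).

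P450s of fatty acids hydroxylate fatty acids and eicosanoids, and none of 12 genes passed by its brightest probe set. CYP2U1, a fatty acid hydroxylase, was at 5.93 and 6.01 in knock-down and 5.77 and 5.72 in overexpressing arrays (-0.23 ± 0.08, SE, limma adjusted p = 0.18). CYP4X1 was at 2.84 ± 0.23 and 3.08 ± 0.09 (SD, knock-down and overexpressing), a difference of 0.24 ± 0.12 (adjusted p = 0.37), below the lower quartile of every array. CYP4A11 (0.02 ± 0.08) and CYP4F2 (0.06 ± 0.11), the kidney and liver omega-hydroxylases, overlapped between the groups. CYP4V2, a hydroxylase whose loss causes a crystalline retinal dystrophy, was at 5.79 and 5.78 against 5.83 and 5.77 on its brightest probe set (0.02 ± 0.07, adjusted p = 0.95). A dimmer probe set of CYP4V2 was at 3.09 and 3.17 against 3.69 and 3.67 and was the sole P450 probe set to pass in the fit by probe set (0.55 ± 0.08, adjusted p = 0.028). Others of CYP4V2 differed by 0.37 ± 0.09 (adjusted p = 0.11) and 0.22 ± 0.16 (adjusted p = 0.58), at levels below the array medians.

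P450s of sterols, steroids and vitamins ranged from -0.18 to 0.14 over the brightest probe sets of 14 genes, of which none passed in limma (0 at an unadjusted p under 0.05). In the fit by probe set 5 of their 27 probe sets had an unadjusted p under 0.05, where 16.3% of all did, and none passed. CYP27A1, a mitochondrial sterol hydroxylase of bile acid synthesis, was at 7.09 and 7.30 in knock-down and at 7.41 and 7.14 in overexpressing arrays, with overlap. CYP2R1, the vitamin D hydroxylase of the liver, was at 7.10 ± 0.08 and 7.11 ± 0.03 (SD) on its brightest probe set. Dimmer ones differed by 0.23 ± 0.08 (SE, limma adjusted p = 0.25 by probe set) and -0.02 ± 0.11. CYP11A1, which starts steroid synthesis by cleaving the side chain of cholesterol, differed by -0.18 ± 0.09 (SE, adjusted p = 0.36), and CYP7B1, an oxysterol hydroxylase, by 0.14 ± 0.08 (adjusted p = 0.43). CYP11B2, the aldosterone synthase, differed by -0.07 ± 0.09. CYP24A1, which inactivates vitamin D and is a classical target of its receptor VDR, was among the dimmest members, at 2.99 and 2.99 against 2.99 and 2.92 (adjusted p = 0.88). Of the P450s placed in none of the role groups above, CYP2W1, which is known from fetal gut and colorectal tumours, was at 6.36 and 6.46 against 6.39 and 6.49. CYP20A1 (0.02 ± 0.12) and CYP27C1 (-0.08 ± 0.08) also overlapped. Among the 44 P450 genes, limma gave 4 an unadjusted p under 0.05 on the brightest probe set, against 18.6% of all genes. Both group means lay above every array's median for 12 of the 44, and for 12676 of all 19775 genes.

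Probe sets were then taken singly, because 35 member genes had more than 1. Of 142 member probe sets, 1 rose and 3 fell in the fit by probe set, or 2.82%, where 2.83% of all 41091 did (1.91% higher and 0.925% lower). The 4 that passed were both probe sets of GSTO2, the brighter of GSTA4 and the dim one of CYP4V2. An unadjusted p under 0.05 was found for 28 member probe sets, and for 16.3% of all. GSTM2, MGST3 and SULT2B1, each past the threshold by gene, did not pass here (limma adjusted p = 0.061, 0.069 and 0.070). Among the 35 genes, 18 had all their probe sets on 1 side of 0 and 17 had them on both sides. CYP39A1, an oxysterol hydroxylase, was at 5.32 ± 0.06 and 5.34 ± 0.04 (SD) on its brightest probe set, whereas those near the bottom of the scale differed by 0.48 ± 0.15 and 0.28 ± 0.10 (SE) without passing.

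**Figure D3:**
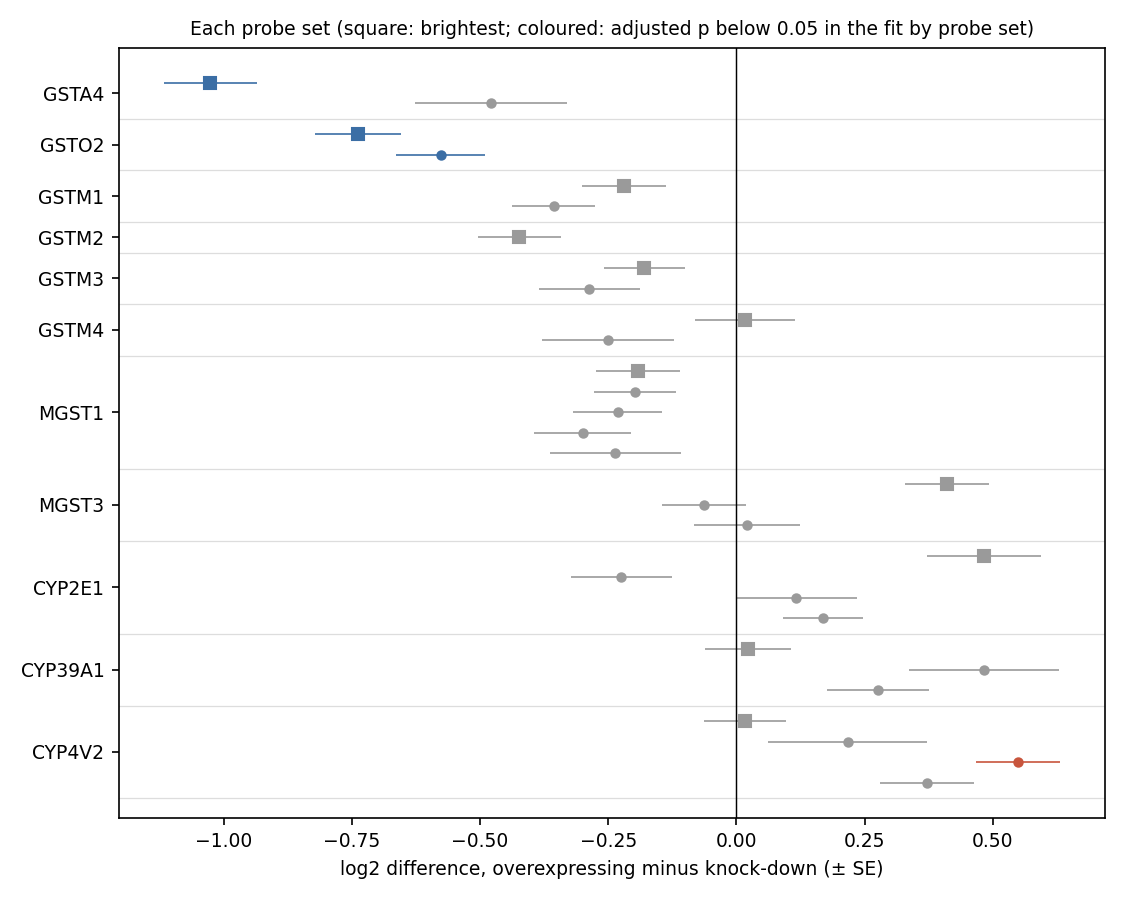
Log2 difference, overexpressing minus knock-down, with its SE, for every probe set of 11 member genes, ordered within each gene from the brightest (square) to the dimmest (2 arrays per group). Coloured points passed an adjusted p of 0.05 in the fit by probe set: both of GSTO2 and the brightest of GSTA4 lie below 0, and a dim one of CYP4V2 lies at 0.55 while its brightest lies at 0.02.

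The genes around these enzymes were compared in 5 lists of regulators, electron and haem supply, cofactor supply, other detoxifying enzymes and transporters. Of 174 genes listed, 152 were measured and named here, of which 12 rose, 9 fell and 131 did not pass, or 13.8% past the threshold against 4.77% of all genes. The lists were drawn up with earlier results of these data known, so this share is a description. Median differences of the lists lay between -0.07 and -0.01.

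Of 28 regulators 4 rose and 1 fell. AHR, the aryl hydrocarbon receptor, was at 7.71 and 7.75 in knock-down and 8.13 and 8.09 in overexpressing arrays (0.38 ± 0.07, SE, limma adjusted p = 0.045), and AHRR, its repressor, rose 2.56-fold from 7.53 and 7.69 to 8.89 and 9.04. MAFF, a small MAF protein that pairs with NRF2, rose 2.99-fold, from 7.63 and 7.83 to 9.21 and 9.42. VDR, the vitamin D receptor, rose 1.89-fold, from 8.33 and 8.44 to 9.31 and 9.30. HNF4G, a nuclear receptor of gut and liver, fell by 0.56 at a level below the lower quartile of every array. Of 20 genes of electron and haem supply 2 rose and 1 fell. CYB5R2, a cytochrome b5 reductase, rose from 4.23 and 3.86 to 6.25 and 6.35 on its single probe set (2.25 ± 0.13, SE), and CYB5A, the cytochrome b5 that gives electrons to some P450s, rose 2.51-fold from 5.19 and 4.79 to 6.55 and 6.08. HMOX1, which degrades haem, fell from 10.58 and 10.73 to 9.58 and 9.80.

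Of 22 genes of cofactor and donor supply 4 fell and none rose. They were SLC7A11, which imports cystine for glutathione (-1.04, from 8.77 and 9.02 to 7.80 and 7.92), GSR, which regenerates glutathione (-0.72), GCLM, the modifier of the first step of glutathione synthesis (-0.51), and UGDH, which makes the glucuronic acid donor of UGTs (-0.48). Of these, SLC7A11, GSR and GCLM serve the glutathione that GSTs use. Other genes of glutathione synthesis and breakdown in the list did not pass. They were GCLC (-0.24, limma adjusted p = 0.17), GSS (0.01), GGCT (0.06), GGT1 (0.08), GGT5 (0.01), GGT7 (-0.27), CHAC1 (-0.35) and CHAC2 (-0.005). Of 49 other detoxifying enzymes 2 rose and 3 fell. NNMT, a nicotinamide methyltransferase, rose from 10.37 and 10.37 to 11.17 and 11.15 (0.79), and STS, which removes sulfate from steroids, rose by 0.46. The carbonyl reductase CBR3 (-0.51), the carboxylesterase CES1 (-0.51) and the quinone reductase NQO2 (-0.37) fell. Of 33 transporters 4 rose and none fell. ABCB1, the P-glycoprotein that exports many drugs, rose from 3.84 and 3.89 to 6.06 and 6.44 (2.38 ± 0.13, SE, limma adjusted p = 3.7e-04). Its knock-down values, like those of CYB5R2, lay below the lower quartile of every array, so no fold is given for either. ABCB4 (0.85), SLCO4A1 (0.70) and ABCC4 (0.46) followed. ABCB1, CYB5R2, AHRR and MAFF passed with each array left out in turn. VDR missed it without either overexpressing array, SLC7A11 kept it solely without knock-down replicate 1, and the other 15 missed it in every case. HNF4G (-0.29) and SLCO4A1 (0.32) also missed the threshold as means of their probe sets, and ABCB4 (0.03), CYB5A (0.23) and NQO2 (-0.39) without probe sets marked as shared. VDR, CYB5R2, STS, CES1 and SLCO4A1 have only probe sets so marked and were not tested there. AHR, whose single probe set is not so marked and was unchanged (0.38), also just missed it in that fit over 17098 genes (limma adjusted p = 0.053). As means of probe sets ABCB1 rose by 1.43 and VDR by 0.54.

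**Figure D4:**
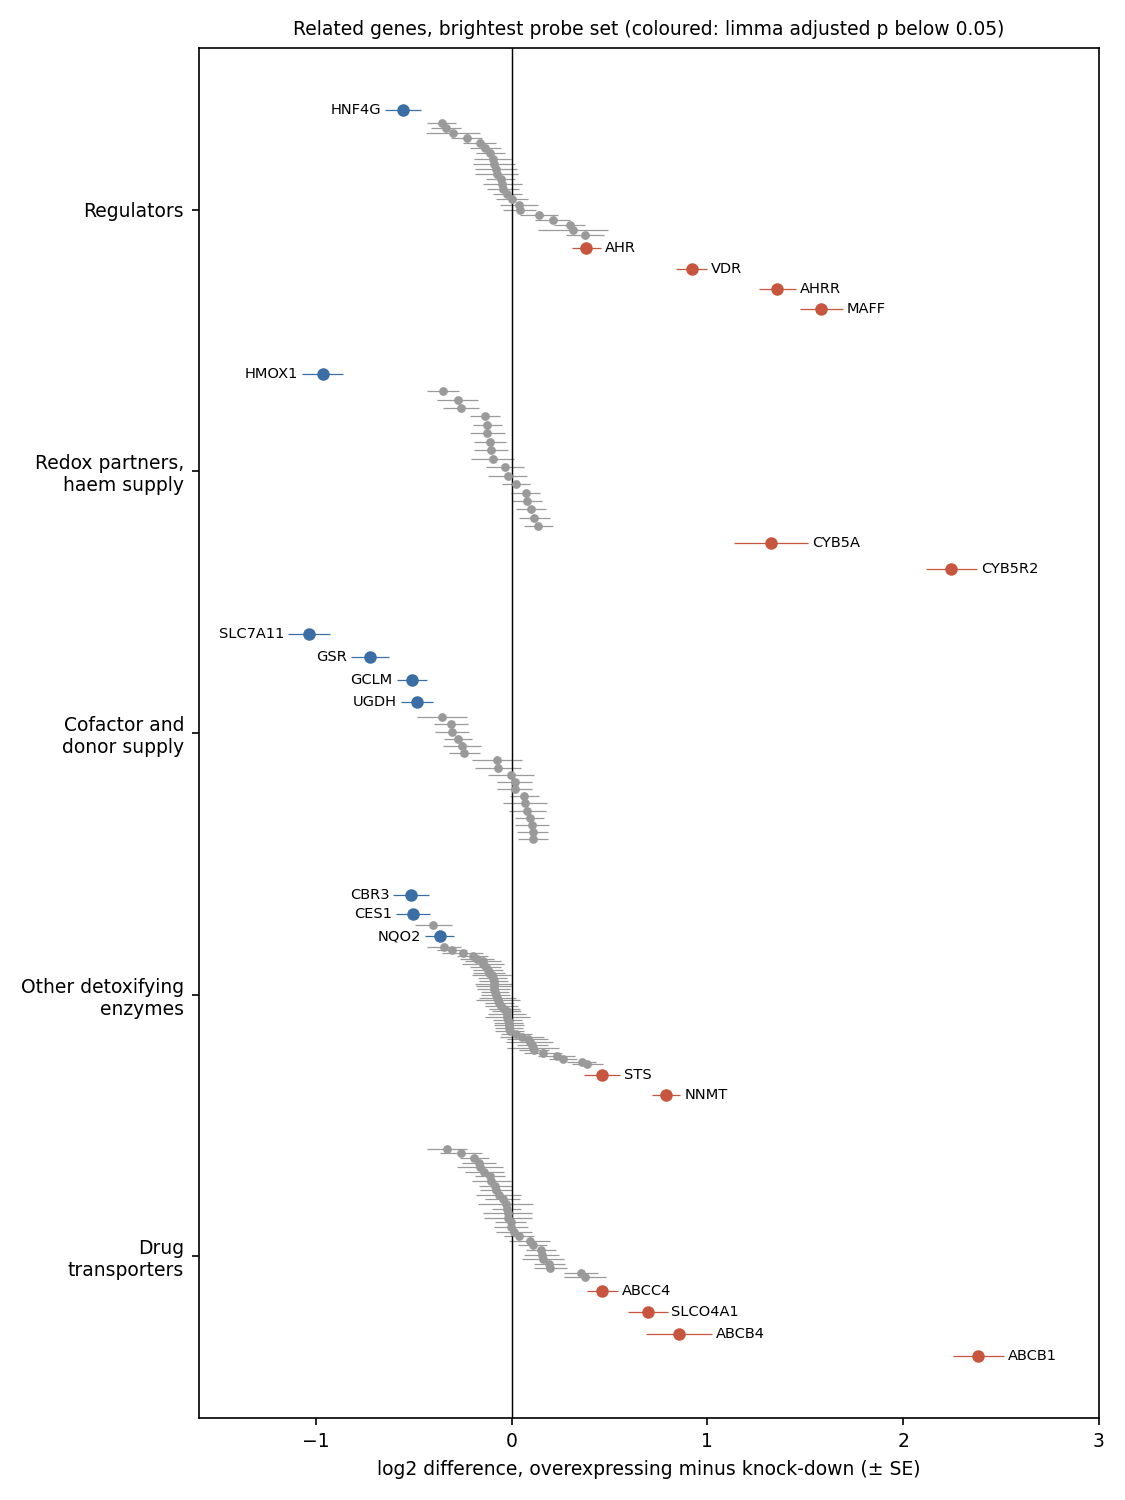
Log2 difference, overexpressing minus knock-down, with its SE, for the brightest probe set of each of the 152 related genes, by list (2 arrays per group). Coloured and labelled points passed an adjusted p of 0.05 in limma: the 4 points of cofactor and donor supply lie below 0, the 4 of the drug transporters lie above it, and ABCB1 (2.38) and CYB5R2 (2.25) lie farthest out.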

How the data were processed

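RNA of 4 samples of transduced SW480 cells was hybridised to Affymetrix arrays, 1 per sample, and sample titles gave the groups and replicate numbers. The authors deposited log2 values per probe set, made by RMA with affy, per the submitters' processing notes. They were used as deposited. Of 54675 probe sets, 62 were controls, 41091 had 1 symbol, 1801 several and 11721 none; 41037 symbols matched RefSeq by gene identifier. Where a gene had several probe sets, that of highest mean across the 4 arrays stood for it. Groups were compared with limma 3.58.1 in R 4.3.3 (lmFit, group only, eBayes with default settings, two-sided, Benjamini-Hochberg over all genes or all probe sets, threshold 0.05). Residual degrees of freedom were 2, with 4.17 more from the prior. Permuting a single value over 2 against 2 arrays gives an exact two-sided p of 0.333 at best. The number of arrays limits the precision.

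The members, lists and tests were chosen with earlier results of these data known. Named members were those past the threshold in either fit and, in each of 7 groups, the 3 with the highest mean and the 2 with the largest absolute difference; of the related genes, up to 6 past the threshold per list. CYP1A2, CYP24A1, CYP39A1, the other GST genes, SULT1E1, SULT2A1, LMTK3 and FAM83E were named after their values were seen. No set test was made. As alternatives, the fit was repeated with robust moderation along an intensity trend, the replicate number as a block, median centring, a second quantile normalization, genes above the median level, the mean of probe sets, no probe sets ending in _s_at or _x_at, stricter thresholds and leaving out each array.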

Additional observations from a re-analysis of the deposited data

How the results depend on the processing

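Of the 77 member genes 5 passed, and this count was 5 with arrays centred on their medians, with a second quantile normalization or among genes above the median level, and 4 with the mean of all probe sets. It was 8 with an intensity trend and robust moderation, where CYP2E1, GSTM3 and MGST1 also passed (limma adjusted p = 0.032, 0.017 and 0.018). Without probe sets ending in _s_at or _x_at it was 2. There MGST3 missed the threshold, while GSTM2 and SULT2B1, whose single probe sets have such endings, were not tested. The count was also 2 at an adjusted p of 0.01 or with a difference of at least 0.5. Without 1 array it was between 0 and 1. Of the 142 member probe sets 4 passed, against 7 among probe sets above the median level, 11 with the trend and robust moderation, 1 at an adjusted p of 0.01 and 0 without any 1 array; over all probe sets but controls, an alternative chosen after seeing the data, it was 4. Of the 152 related genes 21 passed, against 8 at an adjusted p of 0.01 and between 4 and 6 without 1 array. Over all genes the count of 944 was 1822 with the trend and robust moderation and between 172 and 237 without 1 array, and centring moved the median difference from -0.02 to -0.03. The share of all genes that passed was 13.7% among genes above the median level and 9.21% with the trend and robust moderation. Of all probe sets 7.33% and 5.92% passed in these 2 settings, so the share rose over all features as well. With the replicate number as a block, 2 member genes, 2 member probe sets, 11 related genes and 520 of all genes passed. GSTM2, MGST3 and SULT2B1 then missed the threshold (limma adjusted p = 0.072, 0.088 and 0.076). The labels give the arrays of a pair only a shared number (correlation of deviations 0.158). Whether they were handled together is not stated, so it is not known whether the block is a true pairing. Of 330 alternative values for 32 named members 304 kept their side of the threshold, most of them for genes that had not passed. All 23 that lost the call belonged to the 5 genes that had passed, and 3 gained it. In the alternatives that kept all arrays, GSTA4 and GSTO2 each passed in 7 of 7. GSTM2 and SULT2B1 each passed in 5 of 6, and MGST3 in 4 of 7. A change of sign was seen in 18 of the 330, each for a gene past the threshold in neither fit. With 2 arrays per group, differences that did not pass are not shown to be absent.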

Other observations

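Probe sets that carry several gene symbols were outside the enzymes counted above, and were read after their values were seen. The UGT1A genes share their last exons, and 7 probe sets name between them UGT1A forms from UGT1A1 to UGT1A10. Over all 54613 probe sets but controls, of which 1.97% passed, 2 of the 7 rose. The first was at 5.24 and 5.22 in the knock-down arrays and at 6.11 and 6.06 in the overexpressing arrays (0.86 ± 0.08, SE, n = 2 per group, limma adjusted p = 0.0073). The second was at 5.72 and 5.72 against 6.51 and 6.49 (0.79 ± 0.08, adjusted p = 0.0095). Both name 9 UGT1A genes, and on both the groups were clearly apart. The remaining 5 did not pass and differed by 0.51, 0.45, 0.33, -0.01 and -0.20, with a median of 0.45 over the 7. The probe sets of UGT1A1 and UGT1A6 alone differed by -0.17 and -0.20 without passing. Which UGT1A form carries the rise was not tested, since these probe sets do not separate the forms.

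The catecholamine and phenol sulfotransferases SULT1A3 and SULT1A4, which are near-identical copies, had 4 shared probe sets, each with a difference below 0. The brightest was at 10.46 and 10.60 in the knock-down arrays and at 10.11 and 10.17 in the overexpressing arrays (-0.39 ± 0.09, adjusted p = 0.12), and the next was at 10.40 and 10.46 against 10.00 and 10.08 (-0.39 ± 0.08, adjusted p = 0.10). None of the 4 passed in limma (2 had an unadjusted p under 0.05). A probe set of CYP4A22 and CYP4A11 was at 3.26 and 3.32 against 2.92 and 2.83 (-0.41 ± 0.08, adjusted p = 0.089), near the bottom of the scale.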
